A study of Rattus norvegicus with 12 samples.

Results

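The cytoplasmic polyadenylation element binding proteins Cpeb1, Cpeb2, Cpeb3 and Cpeb4 were examined in the cortex of aged and young rats. The family was chosen by the age difference in Cpeb1 signal on these same arrays, so the age values of its members are given as a description and were not tested. Of the 4 genes, 3 had a probe set on the array and 4 probe sets in all carried their symbols, among 31099 probe sets and 14218 named genes. Cpeb2 had no probe set with its symbol in the platform annotation used here and is not described further. RNA came from 6 aged rats (21 to 23 months by the labels) and 6 young rats (3 to 5 months), all male Fischer 344 animals, with 1 Affymetrix RAE230 2.0 array per rat. By the study's methods every rat carried a wireless EEG and EMG emitter, was trained in the Morris water maze and was killed right after the last trial, and the arrays cover the first 6 animals of each age by order of entry. The sample titles and the methods give parietal cortex and the tissue entry frontal cortex, and the files do not settle which was taken.

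CPEB proteins bind a short uridine-rich element in the 3′ untranslated region of some mRNAs and set the length of the poly(A) tail in the cytoplasm, and with it translation. Cpeb1 holds its targets silent with a short tail until phosphorylation, by Aurora A or by CaMKII in neurons, favours tail elongation by the poly(A) polymerase Gld2 (the gene Tent2). In neurons these proteins sit in dendrites and at synapses, where local translation is known to take part in lasting synaptic change. Cpeb2, Cpeb3 and Cpeb4 resemble each other more than they resemble Cpeb1.

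The start-site windows of the 3 measured genes are shown because Cpeb1 stood apart from Cpeb3 and Cpeb4 in the arrays. They come from RefSeq (build GRCr8), run 5′ to 3′ and hold 250 bases before and 50 bases after the listed start of transcription. All 4 family members were matched in the table, Cpeb2 with 2 windows, and a gene can have other starts. The Cpeb1 window lies at chr1:144816214-144816513, the Cpeb3 window at chr1:244343512-244343811 and the Cpeb4 window at chr10:16283539-16283838, each on the minus strand. Capitals mark every match, on either strand, to any of 5 short motifs picked after the Cpeb1 window had been read (E-box, GC box, cAMP response element, TATA box and CCAAT box), each spelled out with its counts after the sequences.
Cpeb1: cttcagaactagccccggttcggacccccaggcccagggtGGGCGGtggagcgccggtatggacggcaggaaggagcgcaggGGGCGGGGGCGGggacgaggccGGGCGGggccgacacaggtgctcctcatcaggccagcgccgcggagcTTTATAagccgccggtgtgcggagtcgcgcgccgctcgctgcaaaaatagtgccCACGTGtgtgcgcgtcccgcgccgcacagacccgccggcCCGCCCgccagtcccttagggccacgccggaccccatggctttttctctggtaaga
Cpeb3: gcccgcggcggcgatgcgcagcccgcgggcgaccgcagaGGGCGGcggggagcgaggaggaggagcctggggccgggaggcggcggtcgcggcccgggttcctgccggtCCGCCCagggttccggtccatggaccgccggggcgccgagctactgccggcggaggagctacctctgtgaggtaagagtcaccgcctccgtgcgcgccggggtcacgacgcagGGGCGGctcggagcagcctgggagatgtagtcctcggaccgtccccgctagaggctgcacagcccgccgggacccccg
Cpeb4: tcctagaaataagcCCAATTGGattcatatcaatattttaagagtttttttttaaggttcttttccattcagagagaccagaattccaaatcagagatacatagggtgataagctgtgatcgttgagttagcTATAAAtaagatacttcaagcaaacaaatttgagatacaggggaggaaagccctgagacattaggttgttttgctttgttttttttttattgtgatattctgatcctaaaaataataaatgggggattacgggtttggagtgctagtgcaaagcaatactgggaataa

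The Cpeb1 window was rich in G and C at 71.3% and the Cpeb3 window at 77.0%, while the Cpeb4 window held 34.0%, against a median of 51.7% over 33469 windows of the same length. The GC box was searched as GGGCGG, and the Cpeb1 window had 5 and the Cpeb3 window 3. At least 1 GC box was present in 33.1% of all windows. The Cpeb1 window also held 1 E-box (CACGTG), whose first base lies at position -45 from the listed start, and 6.42% of all windows held this motif. A match to the TATA box (TATAAA) was present in the Cpeb1 and Cpeb4 windows and in 14.2% of all windows. Cpeb4 had 2 CCAAT matches that overlap, on opposite strands, and this motif was found in 37.5% of windows. None of the 3 windows held the cAMP response element (TGACGTCA), which was found in 1.83% of all windows. These matches describe letters only.

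The values analysed were deposited signal intensities on a linear scale, and differences are aged minus young on the log2 scale unless a fold is stated. A probe set was kept when its log2 signal exceeded 4.3 (a signal of 19.7) on at least 3 arrays, and 28193 probe sets passed. All 4 Cpeb probe sets exceeded it on all 12 arrays. The median signal of an array ranged from 167.9 to 194.3 in aged rats and from 161.6 to 171.9 in young rats. The arrays of aged rats 2 and 6 correlated least with the other arrays (mean r of 0.9582 and 0.9616, against 0.9630 to 0.9669), and values without this pair are in the closing section. The submitters' sample codes form a lower number series of 4 aged and 3 young rats and a higher series of 2 aged and 3 young rats. What the codes stand for is not given in the sources used here. Of the markers of excitatory neurons of the cortex, all 9 on the array were measured. Among them Slc17a7 had a mean signal of 4215 in aged and 4556 in young rats. Over these 9 genes 3 had a positive and 6 a negative difference (median -0.049), against 56.9% positive over all genes tested. All 7 markers of hippocampus, striatum and thalamus were measured as well, so passing the cutoff does not tell these regions apart.

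Cpeb1 (probe set 1392996_at), the founding member of the family, gave a higher signal in the aged cortex. Its signal ran from 695 to 827 in aged rats (median 741), against 529.9 to 615 in young rats (median 576). Each of the 6 aged rats lay above all 6 young rats. The mean was 748 ± 47.1 in aged and 575 ± 35.6 in young rats (SD, n = 6 each), a log2 difference of 0.38 (standard error 0.065 from limma) or 1.30-fold. This difference was 4.2 times the SD between rats of the same age, which was 0.090 on the log2 scale. Bulk tissue was measured, so a change in the number of cells that hold Cpeb1 RNA and a change in RNA per cell cannot be told apart. Since Cpeb1 has a single probe set here, no second set of probes bears on its value.

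The Cpeb1 difference was of similar size in both series of sample codes. In the lower series the mean signal was 768 in aged and 603 in young rats, a log2 difference of 0.35 (standard error 0.085). In the higher series it was 708 in aged and 548 in young rats, a log2 difference of 0.37 (standard error 0.11). Within each age the rats of the higher series had less Cpeb1 signal than those of the lower series, by a log2 difference of -0.12 in aged and -0.14 in young rats. With the series as a block the age difference was 0.36 (standard error 0.055). When each rat was left out in turn it stayed between 0.35 (without aged rat 2) and 0.40 (without young rat 2). These are the arrays by which Cpeb1 was chosen, and its aged and young ranges do not overlap. A positive difference in every subset was therefore fixed in advance, and nothing is read from its sign.

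**Figure D1:**
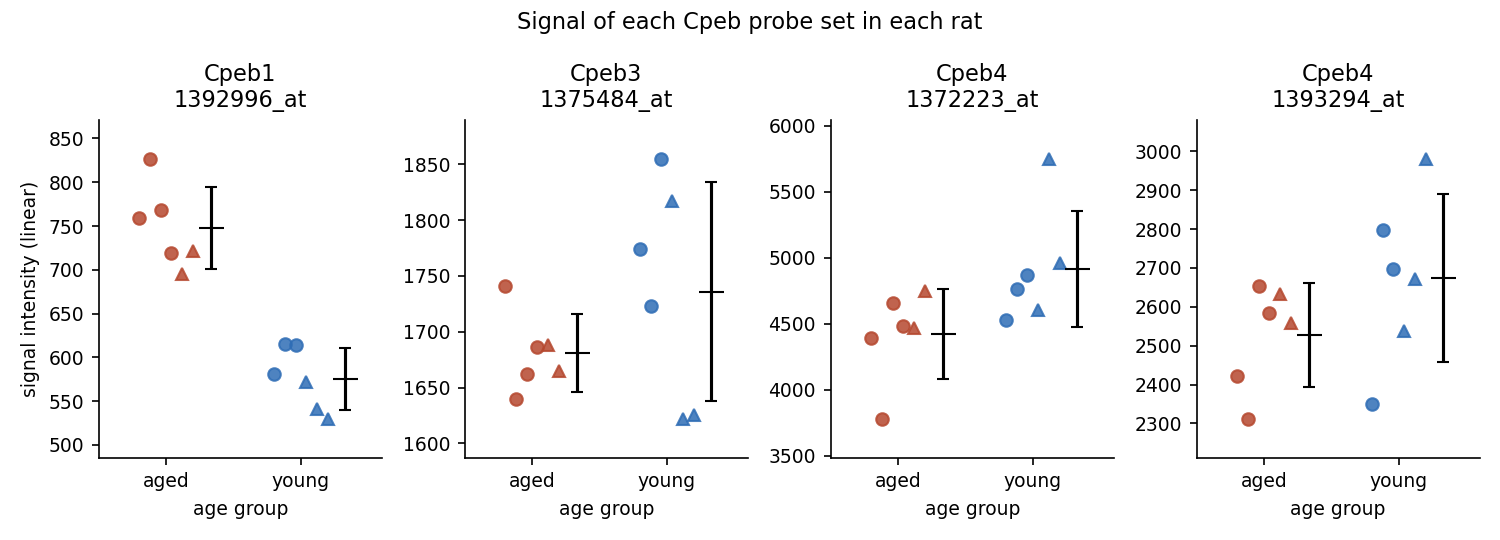
Deposited signal intensity (y axis, linear, a scale of its own in each panel that does not start at 0) of each Cpeb probe set in aged (left) and young (right) rats. Each point is 1 rat, circles are the lower and triangles the higher series of sample codes, and the black bar is the mean ± SD of 6 rats; the aged Cpeb1 points (695 to 827) lie above the young ones (529.9 to 615), and the other panels overlap.

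Cpeb3 (probe set 1375484_at), known in mouse neurons for holding down AMPA receptor subunits, had nearly the same signal at both ages. It ranged from 1640 to 1741 in aged rats (median 1676), against 1622 to 1855 in young rats (median 1748). All 6 aged rats lay within the young range. The means were 1681 ± 34.6 in aged and 1736 ± 97.8 in young rats (SD, n = 6 each), a log2 difference of -0.045 (standard error 0.055). The aged rats were closer together, with an SD of 0.029 on the log2 scale against 0.082 in young rats, and the difference in spread was not tested. The age difference was -0.084 in the lower series and -0.0077 in the higher series, and it was -0.12 (standard error 0.074) when arrays were centred on their medians.

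Cpeb4, whose mRNA is induced in mouse brain by strong neuronal activity and whose protein acts in cell survival under stress, was read by 2 probe sets, both slightly lower on average in aged rats. The first (1372223_at) ranged from 3781 to 4752 in aged rats (median 4477), against 4532 to 5752 in young rats (median 4817). Here 4 of the 6 aged rats lay below every young rat, and the other two fell within the young range. The means were 4422 ± 341 in aged and 4914 ± 439.6 in young rats (SD, n = 6 each), a log2 difference of -0.15 (standard error 0.078). That is 1.3 times the SD within an age group, and it came to -0.11 without aged rat 2 and also without young rat 5.

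The second Cpeb4 probe set (1393294_at) ranged from 2312 to 2654 in aged rats (median 2570), against 2350 to 2981 in young rats (median 2684). A single aged rat, rat 2, lay below all young rats. The means were 2527 ± 133 in aged and 2673 ± 216 in young rats (SD, n = 6 each), a log2 difference of -0.079 (standard error 0.069). It was -0.046 without young rat 6 and -0.15 with arrays centred on their medians. Both Cpeb4 probe sets had the same sign in each code series, with -0.13 and -0.067 in the lower and -0.14 and -0.070 in the higher series.

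**Figure D2:**
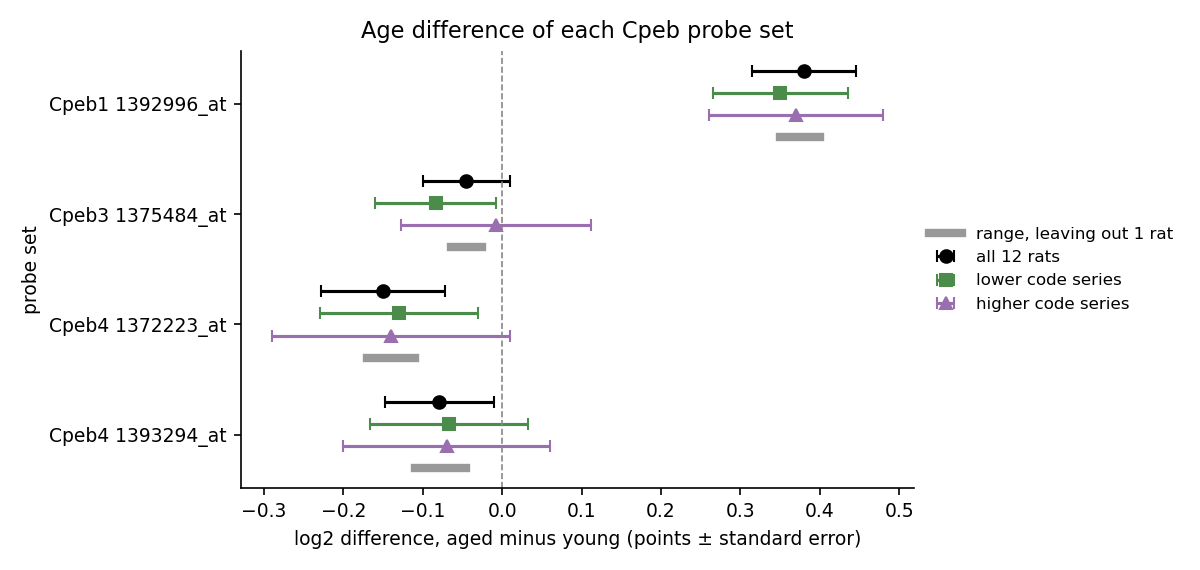
Log2 difference of aged minus young (x axis) for each Cpeb probe set (y axis), for all 12 rats and within each series of sample codes (points ± standard error), with the range over fits that leave out 1 rat (grey bars). Cpeb1 lies at 0.38 and between 0.35 and 0.40 with 1 rat left out, while Cpeb3 and both Cpeb4 probe sets lie at -0.045, -0.15 and -0.079.

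Across the whole array few probe sets differed with age. In limma 605 of 28193 probe sets (2.15%) had an unadjusted p up to 0.01, the threshold of the study's methods, and 7 (0.0248%) had an adjusted p under 0.05 (Benjamini-Hochberg over all probe sets). The lowest aged rat exceeded the highest young rat for 0.429% of probe sets, and for 1 of the 4 Cpeb probe sets, that of Cpeb1. Cpeb1 was chosen on this contrast, so nothing is read from that count.

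Between rats of the same age the Cpeb4 probe sets varied nearly as much as others of like signal, and those of Cpeb1 and Cpeb3 less. The SD within age groups on the log2 scale was 0.090 for Cpeb1, 0.061 for Cpeb3 and 0.12 and 0.10 for the Cpeb4 probe sets. Over all probe sets tested its median was 0.25. In the top quartile of probe sets by mean signal, which holds those of Cpeb3 and Cpeb4, the median was 0.13, and in the next quartile, with Cpeb1, it was 0.18. Cpeb1 was chosen on its age contrast, to which a small SD can contribute, so nothing is read from its SD.

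Whether the family members vary together from rat to rat was asked with deviations from the age means, which do not hold the age difference. Rats with more Cpeb1 signal than their age mean tended to have less Cpeb4 signal, with Pearson's r = -0.62 over 12 rats (permutation p = 0.0437 within age groups, two-sided, adjusted p = 0.131 over 3 pairs) and Spearman's rho = -0.57 (permutation p = 0.0595, adjusted p = 0.178). The relation does not pass after adjustment, and r was -0.40 without aged rat 2 alone and -0.35 with arrays centred on their medians. Without aged rat 2 and young rat 6, the rats farthest out in Cpeb1, r was -0.44 (permutation p = 0.323), so it rests in part on these rats. With the means of each code series within each age taken off it was -0.47 (permutation p = 0.243). In aged rats alone r was -0.73 (exact permutation p = 0.111, rho -0.31) and in young rats alone -0.51 (exact permutation p = 0.329, rho -0.49), with 6 rats each. Aged rat 2 had the highest Cpeb1 signal and the lowest signal of the first Cpeb4 probe set among aged rats. With the second Cpeb4 probe set Cpeb1 gave r = -0.44 (permutation p = 0.179) and rho = -0.31 (permutation p = 0.347).

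The order of the gene pairs by r depended on aged rat 2 and on the scaling of the arrays. Cpeb1 and Cpeb3 had r = 0.42 (permutation p = 0.209, adjusted p = 0.253) and rho = 0.24 (permutation p = 0.487, adjusted p = 0.487). Without aged rat 2 its r was 0.65, and with arrays centred on their medians it was 0.75 and passed the threshold (permutation, adjusted p = 0.0244). This relation was not alike in the age groups, at r = -0.37 in aged rats (exact permutation p = 0.456, rho -0.66) and r = 0.76 in young rats (exact permutation p = 0.0944, rho 0.54), and the difference was not tested. Without aged rat 2 and young rat 6 it had r = 0.51 (permutation p = 0.221), and within the code series r = 0.17 (permutation p = 0.648). Cpeb3 and Cpeb4 had r = -0.39 (permutation p = 0.253, adjusted p = 0.253) and rho = -0.43 (permutation p = 0.173, adjusted p = 0.259), with r = -0.16 (permutation p = 0.591) without young rats 3 and 5 and r = -0.27 (permutation p = 0.617) within the code series. Without aged rat 2 its r was -0.69, and without young rat 5 it was -0.05. The 2 probe sets of Cpeb4, which should read the same gene, had r = 0.55 (permutation p = 0.0905) and rho = 0.52 (permutation p = 0.0823), and r = 0.76 (permutation p = 0.0179) without aged rat 2 and young rat 5.

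**Figure D3:**
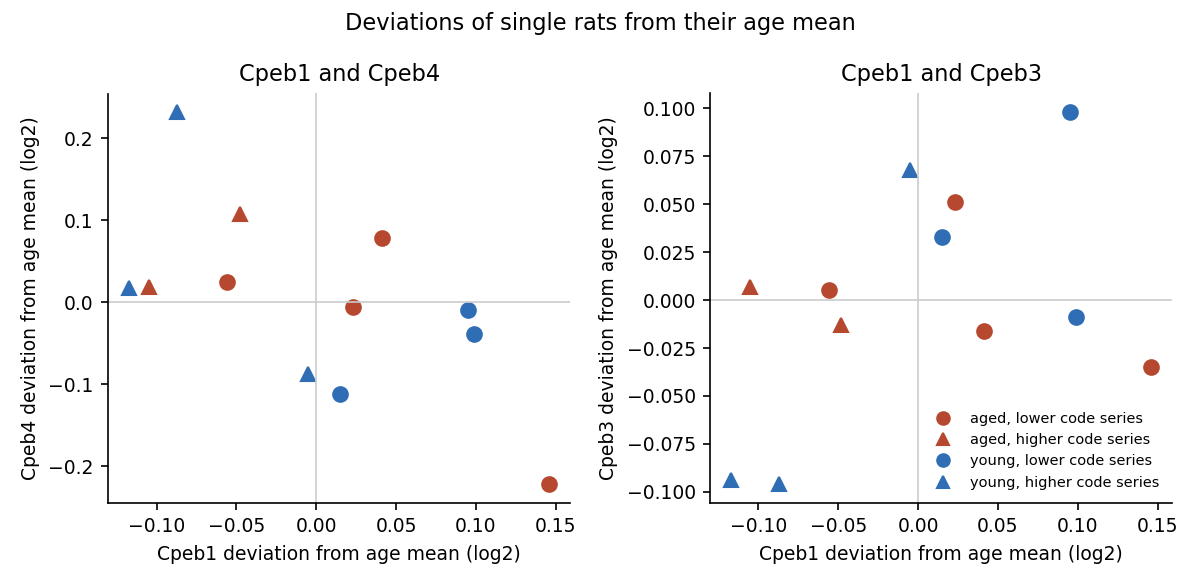
Deviation of each of the 12 rats from its age mean (log2) for Cpeb1 (x axis) against Cpeb4 probe set 1372223_at (y axis, left) and Cpeb3 (y axis, right), coloured by age with circles for the lower and triangles for the higher series of sample codes. The points slope down on the left (r = -0.62) and scatter on the right (r = 0.42), and neither passes after adjustment on the deposited scale, while the relation on the right does (r = 0.75) with arrays centred on their medians.

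The genes most like Cpeb1 from rat to rat were picked by Pearson's r of the same deviations among 13252 other genes, each read by its brightest probe set, over 12 rats. The correlation is given as a description without a test, since these genes were the extremes of the whole list. The closest was Maob, the monoamine oxidase of glia, at r = 0.932. Gyg1 (glycogenin, the primer of glycogen synthesis) had r = 0.914, Bccip (a BRCA2-interacting protein) 0.901, Rcbtb2 0.888 and Bhlhe41 (a basic helix-loop-helix repressor of the circadian clock, also called Dec2) 0.877. Running against Cpeb1 were Smchd1 (a chromatin protein of X inactivation) at r = -0.907, Ndfip2 (an adaptor of Nedd4 ubiquitin ligases) at -0.901 and Mphosph10 (a nucleolar protein of ribosome assembly) at -0.899. Within the code series r was 0.89 for Maob, 0.85 for Gyg1, 0.77 for Bccip, 0.81 for Rcbtb2, 0.73 for Bhlhe41, -0.89 for Smchd1, -0.83 for Ndfip2 and -0.89 for Mphosph10. These values come from the same rats by which the genes were picked, so they are no separate support. With arrays centred on their medians the last pair had weaker correlations, at -0.50 for Ndfip2 and -0.49 for Mphosph10, and the other 6 lay at -0.77 for Smchd1 and from 0.88 to 0.97. Of the 13252 genes 43 had r of 0.8 or more and 65 had r of -0.8 or less. By the same measure Cpeb3 ranked 1968 and Cpeb4 12588, counted from the highest r.

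Read by their brightest probe sets, these genes had age differences smaller in size than that of Cpeb1. Cpeb1 was chosen on this contrast, so nothing is read from that order. Maob, the nearest, had a mean signal of 2282 ± 215 in aged and 1871 ± 209 in young rats (SD, n = 6 each), a log2 difference of 0.29 (standard error 0.087, adjusted p = 0.354 from limma), with 5 aged rats above all young rats. Bhlhe41 had 2757 ± 325 in aged and 2663 ± 287 in young rats, a log2 difference of 0.049. For the other genes it lay between -0.23 (Smchd1) and 0.065 (Rcbtb2). Other probe sets had -0.26, 0.14 and 0.39 for Rcbtb2, 0.33 for Smchd1, -0.16 for Ndfip2 and 0.099 for Mphosph10. The correlations of these genes with Cpeb1 were not repeated with the other probe sets.

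**Figure D4:**
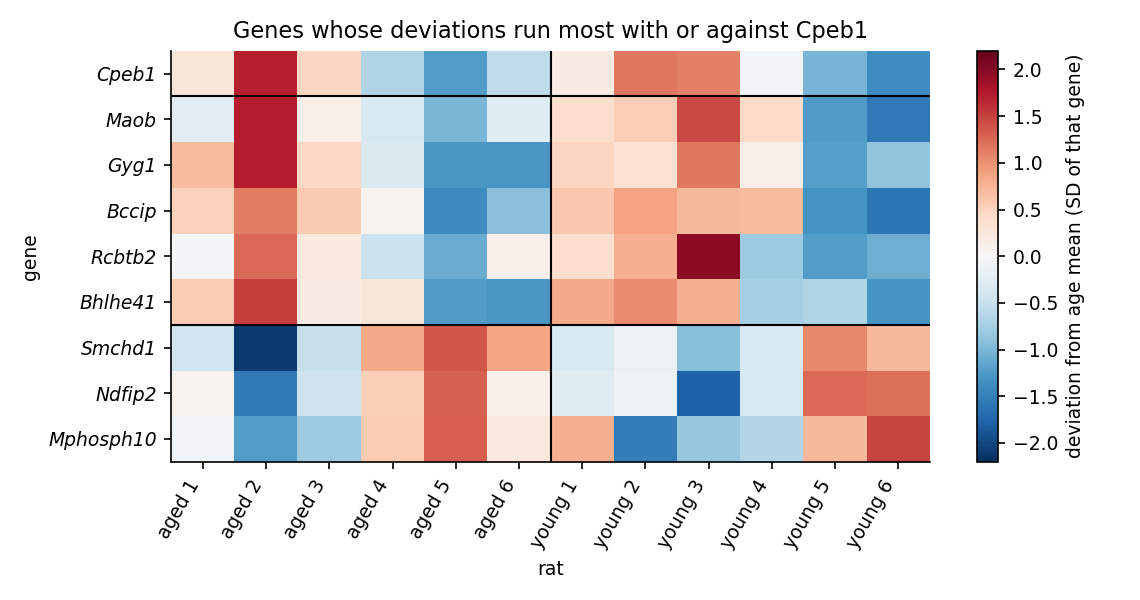
Deviation from the age mean, in units of each gene's SD, for Cpeb1 (top row), the 5 genes with the highest and the 3 with the lowest correlation to it (rows), in 6 aged and 6 young rats (columns). Aged rat 2 is the aged rat highest above its age mean in the top 6 rows and farthest below it in the bottom 3.

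The machinery around the CPEB proteins was then compared between aged and young rats by gene, with limma over 13253 genes. Of 120 listed genes 108 were tested, 46 with a positive and 62 with a negative difference, so that 42.6% were positive, against 56.9% of all genes tested (median log2 difference -0.020, against 0.024 over all genes tested). None passed an adjusted p under 0.05, reached by 7 of 13253 genes (0.0528%). With p up to 0.01 before adjustment, the list held 1 gene higher in aged rats (0.926%) and 1 gene lower (0.926%), where the shares over all genes were 1.92% higher and 0.604% lower. These were Gh1 and Bdnf, described with the listed targets. Gh1 passed the filter on low values only through the aged rats, so nothing is read from the count of higher genes. With p up to 0.05 the list held 5 of 108 genes, Gh1 among them, and the whole array 1207 of 13253.

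The list around cytoplasmic polyadenylation held the cleavage and polyadenylation specificity factors, symplekin, the poly(A) polymerases, the nuclease Parn and the poly(A) binding proteins. It is broader than the cytoplasmic core, and whether each gene acts in the cytoplasm was not examined. Its genes showed little difference with age. Of 19 genes tested 10 had a positive and 9 a negative difference (median 0.012, from -0.15 to 0.21), and 0 had an unadjusted p up to 0.05. Fip1l1, which tethers the poly(A) polymerase, was nearest, at 481 ± 60.9 in aged and 424 ± 41.5 in young rats (SD, n = 6 each), a log2 difference of 0.18 (adjusted p = 0.595 from limma). Wdr33, which reads the nuclear polyadenylation signal, had 0.21 (standard error 0.14), and Cpsf6, of cleavage factor I, had -0.15 (standard error 0.10). Without aged rat 2 Cpsf6 had -0.066, and its other probe sets had 0.017, -0.085, 0.0060 and -0.024.

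Partners and regulators of the CPEB proteins include kinases, phosphatases and cap-binding proteins. Of 22 tested 9 had a positive and 13 a negative difference (median -0.011), and 1 had an unadjusted p up to 0.05. That was Aurka, the Aurora A kinase that phosphorylates Cpeb1 in frog oocytes, with 84.5 to 102 in aged rats, against 72.1 to 93.5 in young rats. Its log2 difference was 0.18 (standard error 0.072, adjusted p = 0.486 from limma), and 0.070 after quantile normalization. Aplp1, of the amyloid precursor family that binds Cpeb1, had 0.11 (standard error 0.052), and Camk2b, the beta subunit of CaMKII, had -0.13 (standard error 0.061).

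Deadenylases shorten tails, and a list of them, their recruiters and their relatives was read next. Whether each listed gene, such as Noct, acts on tails was not examined. Of 16 tested, 6 had a positive and 10 a negative difference (median -0.030), with 0 at an unadjusted p up to 0.05. Noct, the nocturnin gene with a daily rhythm in many tissues, had 1143 ± 243 in aged and 1343 ± 92.4 in young rats (SD, n = 6 each), a log2 difference of -0.26 (standard error 0.13, adjusted p = 0.569 from limma). It was below all young rats in 5 of the 6 aged rats and above all of them in the other, and its log2 difference was -0.16 without aged rat 6. Btg1, which recruits the CCR4-NOT deadenylase, had -0.12 (standard error 0.067), and Pan2, the nuclease of another deadenylase, had 0.16 (standard error 0.095), with 0.36 in the higher and 0.015 in the lower code series.

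Of 27 other RNA-binding proteins of neurons 13 had a positive and 14 a negative difference (median -0.0029), with 1 at an unadjusted p up to 0.05. This was Fxr2, a relative of the fragile X protein, with 826 ± 104 in aged and 693 ± 83.5 in young rats (SD, n = 6 each), a log2 difference of 0.25 (standard error 0.10, adjusted p = 0.503 from limma), which was 0.44 in the higher and 0.11 in the lower code series. Stau1, which carries mRNAs into dendrites, had -0.14 (standard error 0.067), and Celf1, which binds GU-rich mRNAs, had -0.11 (standard error 0.063).

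The mRNAs listed as CPEB targets were drawn from background knowledge and not checked against a source. Binding by a CPEB protein was not examined, and some, such as Gh1, may be linked to one only indirectly. Among 25 tested, 8 had a positive and 17 a negative difference, with a median of -0.070. Bdnf, a neurotrophin, ranged from 346 to 712 in aged rats, against 547 to 899 in young rats, with 3 aged rats below all young rats. Its log2 difference was -0.59 (standard error 0.18, adjusted p = 0.354 from limma), and its other probe set had -0.22. Gh1, growth hormone, had 32.9 to 54.2 in aged rats, against 4.3 to 39.4 in young rats, of which 4 lay at or below the cutoff, so it passed the filter on low values only through the aged rats. Its log2 difference of 1.58 (adjusted p = 0.309 from limma) is thus set against signals near background, and it was 0.87 on the scale of log2(signal + 16) and was not tested where all 12 arrays had to exceed the cutoff. Egfr, a growth factor receptor, had 0.47 (standard error 0.15, adjusted p = 0.391 from limma) with its brightest probe set, while its other probe sets had 0.20 and -1.42, so they disagree.

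**Figure D5:**
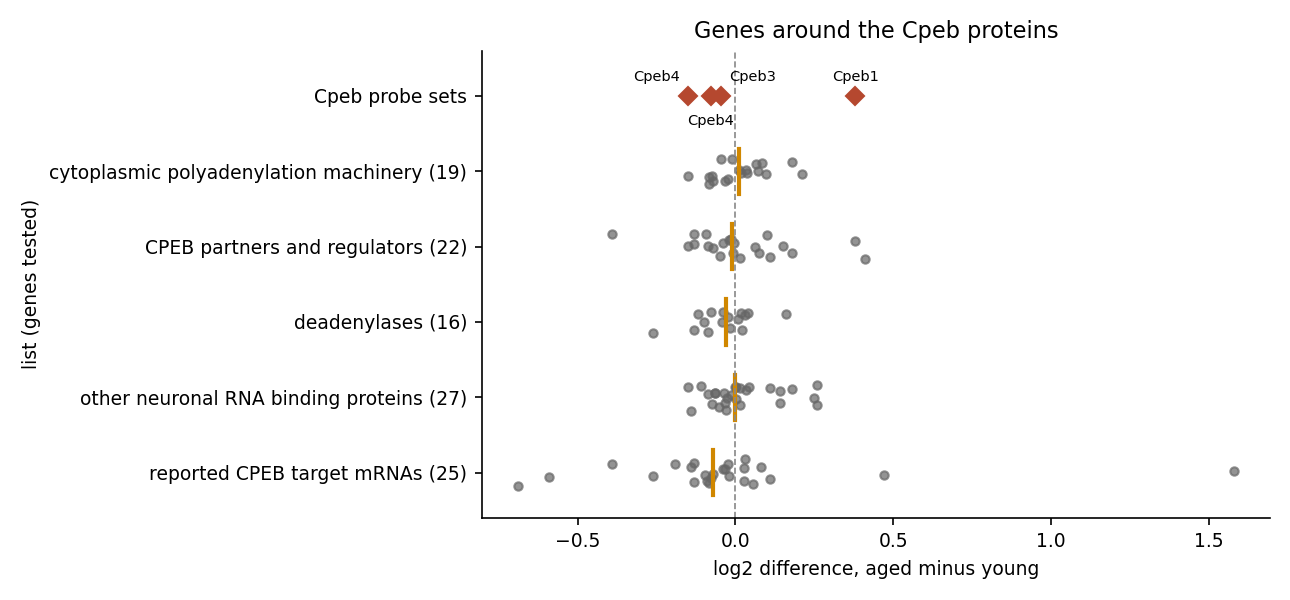
Log2 difference of aged minus young (x axis) for the 4 Cpeb probe sets (diamonds) and for each gene tested in 5 lists (rows, number of genes in brackets), with an orange line at each list's median. The list medians lie between -0.070 and 0.012, and Cpeb1 lies at 0.38.

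Marker genes of other cell types were read on the same arrays, and their part in the Cpeb1 value was not tested. Their counts stand against 56.9% positive differences over all genes tested. Of 5 blood genes measured 5 had a positive difference (median 0.50). Among them S100a9, of neutrophils, did not overlap (83.3 to 241 in aged against 25.0 to 71.3 in young rats). S100a8, also of neutrophils, had 25.3 to 75.6 in aged against 2.57 to 18.8 in young rats. It passed the filter only through the aged rats, as it lay at or below the cutoff in all 6 young rats. Hbb, Alas2 and Ptprc overlapped between the ages. Over all probe sets, 0.429% had every aged rat above every young rat. No range is given for the blood mean, since that mean holds S100a8. Ranges given below with a list's median are of its mean log2 signal per rat. Of 10 microglial genes 9 were positive (median 0.25, 8.27 to 9.35 in aged against 8.24 to 8.67 in young rats), as were 9 of 9 myelin genes (median 0.24, 10.90 to 12.06 in aged against 10.89 to 11.71 in young rats) and 7 of 7 endothelial genes (median 0.21, 8.52 to 9.02 in aged against 8.48 to 8.67 in young rats). Of 7 astrocyte genes 5 were positive (median 0.024, 11.90 to 12.13 in aged against 11.64 to 12.06 in young rats). Of 11 neuronal genes 2 were positive and 9 negative (median -0.062, 12.31 to 12.45 in aged against 12.38 to 12.55 in young rats). The ranges of the microglial, myelin, endothelial, astrocyte and neuronal means each overlapped between the ages. Choroid plexus genes had 2 of 4 positive (median 0.0095), and genes of hippocampus, striatum and thalamus 5 of 7 (median 0.15). No marker listed here passed an adjusted p under 0.05 in limma. An unadjusted p up to 0.01 was reached by 2 of 5 blood genes, S100a8 among them, and by 1 of 10 microglial genes. Each was higher in aged rats, as were 1.92% of all genes tested at that p.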

How the data were processed

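RNA from the cortex of 6 aged and 6 young male rats was hybridised by the authors to Affymetrix RAE230 2.0 arrays, 1 array per rat. The deposited values are linear signal intensities, with 1 value for each probe set on each array. Their trimmed mean (2% trimmed at each end) was 500.1 on every array, close to the authors' scaling target. The methods call the deposited signals gcRMA, which yields log2 values, and the submitters' notes list GCRMA, MAS5 and R 2.7.1; the linear scale and the common trimmed mean differ from gcRMA output, so the method behind these values is not settled. Signals were taken to log2 with no further normalization, and probe sets above a log2 signal of 4.3 on at least 3 arrays (the cutoff of the methods, described there for gcRMA signals) were kept (28193 probe sets, 13253 genes, a gene being read by its probe set of highest mean). Groups were compared with limma 3.58.1 (R 4.3.3, lmFit and eBayes, Benjamini-Hochberg adjustment), which was tested on simulated data. Precision is limited by the number of arrays. The limma p-values set an age difference against the spread between these rats, moderated over all genes or probe sets tested.

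The members and gene lists were chosen with earlier results of these data known, and no p is given for the age difference of a member. In each pathway list the 3 genes of smallest p in the age comparison are named. For likeness to Cpeb1 the 5 highest and 3 lowest correlations are named. Correlations used deviations from age means, with 100000 permutations within age groups, and exact permutation within 1 age. Gene symbols came from the platform annotation (20832 probe sets with 1 symbol, 436 with several, 9831 with none; 20764 gene IDs matched), and start-site windows from RefSeq. Alternatives were quantile normalization, centring on the median, an offset of 16, array weights, code series or subject number as a block, each series alone, leaving out rats, other filters, the methods' t-test, limma with trend and robust options and averaging all probe sets of a gene. Subject numbers 1 to 6 occur at both ages but name different rats.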

Additional observations from a re-analysis of the deposited data

Results flagged for a closer look

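Within each age, the highest and lowest rat was compared with the rest for the named probe sets, in 54 groups of 6 rats, and chance alone marks about 1 in 20 groups. Aged rat 2 had a signal of 3781 for the first Cpeb4 probe set, far below the other aged rats at 4391 to 4752 (the gap was 0.654 of the group's range). Young rat 6 had a signal of 506 for Fip1l1, above the other young rats at 395 to 421 (0.740 of the range).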

How the results depend on the processing

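The Cpeb1 difference stayed between 0.31 (arrays centred on the median) and 0.40 over 21 alternatives, and was 0.35 without aged rats 2 and 6, where Cpeb3 had -0.033 and the Cpeb4 probe sets -0.12 and -0.052. These alternatives reuse the arrays by which Cpeb1 was chosen, so they show only how its value depends on the processing. Cpeb3 ranged from -0.12 to -0.0077, the first Cpeb4 probe set from -0.22 to -0.11 and the second from -0.15 to -0.046. Pathway genes past the adjusted threshold numbered 0 in either direction under 26 alternatives, and those at an unadjusted p up to 0.01 ranged from 0 to 2 each way. Egfr reversed to -0.25 when all its probe sets were averaged, which include the one at -1.42. The correlation of Cpeb1 and Cpeb3 passed the threshold at r = 0.75 (permutation, adjusted p = 0.0244) with arrays centred on the median, the cause was not tested, and otherwise ranged down to 0.17. Leaving out 1 rat gave r of 0.23 (without young rat 6) to 0.65 (without aged rat 2) for Cpeb1 and Cpeb3, -0.68 to -0.40 for Cpeb1 and Cpeb4, and -0.69 (without aged rat 2) to -0.05 (without young rat 5) for Cpeb3 and Cpeb4. Over all genes, the 7 past the adjusted threshold became 2 with median centring, 4 with quantile normalization, 13 with array weights, 18 with trend and robust options, 7 with the methods' t-test, and 0 (without young rat 1 or aged rat 3) to 8 (without young rat 3 or aged rat 4) leaving out 1 rat. With subject number as a replicate block Cpeb1 stayed at 0.38, and the genes past the threshold fell to 2. Same-numbered rats correlated at -0.04 to 0.16 in their deviations, and 5 of 6 aged rats correlated best with the young rat of their number, a hint from the data and not from the design. Except for number 4, same-numbered rats also share a code series, and the part of the series in this was not tested.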
